A study of Homo sapiens with 2 samples.

Results

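Gene-desert peaks are the JARID2 ChIP-seq peaks that the authors' annotation placed in distal intergenic sequence at 100 kb or more from the nearest transcription start site (TSS). The rule selected 4091 of the 67071 peaks in the deposited list, or 6.10% (95% exact interval 5.92 to 6.28), and 16.7% of the 24568 distal intergenic peaks. The list comes from MDA-MB-231, an untreated human triple-negative breast cancer cell line, in which chromatin was fixed, sonicated and precipitated with a polyclonal antibody against JARID2. Besides this ChIP library the series holds 1 library of input DNA, whose values were not used here. With 1 library there is no replicate check, so differences between groups of peaks are given with exact binomial intervals, and no difference was tested. The intervals cover counting error only. Those of shares treat peaks as independent, although peaks of the same desert or gene may not be. Those of tag counts treat tags as independent molecules, which tags copied by PCR are not. Tag counts, fold enrichments and false discovery rates (FDRs) are those the authors gave, on hg19.

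JARID2 is an accessory subunit of Polycomb repressive complex PRC2, which methylates lysine 27 of histone H3 and keeps developmental genes silent. It helps to bring the complex to chromatin, mostly at CpG-rich promoters in embryonic stem cells. Gene deserts are long stretches of chromosome without protein-coding genes. Some hold distant enhancers of developmental genes, while others carry little conserved sequence.

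The gene-desert peaks were weak and alike. The median peak had a fold enrichment of 6.13 (interquartile range 5.30 to 6.96), 12 tags (10 to 14) and a width of 491 bp. The corresponding medians were 6.02, 12 tags and 500 bp for the 20477 intergenic peaks nearer than 100 kb, and 5.95, 12 tags and 510 bp over all peaks. A count of 12 tags has a 95% Poisson interval of 6.20 to 20.96. The highest fold enrichment in a desert was 11.48, whereas the list reached 158.75 overall and 21.98 in nearer intergenic sequence. The peaks covered 2.17 Mb and held 55774 tags, 5.58% of the tags in all peaks. Library depth is unknown because the list holds only peaks.

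Few peaks passed a strict limit. At an FDR of at most 5% there were 12 gene-desert peaks, 0.293% (0.152 to 0.512), where 1.24% of all peaks passed. At 10% there were 23, or 0.562% (0.357 to 0.842), beside 1.96% of all peaks. At the 5% limit the share was 0.503% (0.411 to 0.610) in nearer intergenic sequence and 0.325% (0.258 to 0.404) in introns. It was 4.29% (3.95 to 4.64) in promoters, the class within 3 kb of a TSS. The desert interval at 5% overlapped those of introns and of nearer intergenic peaks. It lay below those of promoters and of the whole list. At the 10% limit the shares were 1.01% (0.878 to 1.16) in nearer intergenic sequence, 0.738% (0.636 to 0.852) in introns and 5.99% in promoters. The desert interval at 10% overlapped that of introns but lay below that of nearer intergenic peaks. An FDR of 0 was given to 0 gene-desert peaks, for which the exact interval reaches 0.0901%, and to 253 peaks in all. At the other end, 73.7% of the gene-desert peaks had an FDR above 40%, close to the 72.3% of nearer intergenic peaks, 72.6% of intron peaks and 70.3% of all peaks, while promoter peaks had 62.4%. A −log10 p of at least 5 was reached by 409 gene-desert peaks (10.0%), beside 12.9% of all peaks. The share was 11.2% in nearer intergenic sequence, 10.4% in introns and 20.6% in promoters.

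The limit of 100 kb did not mark a step in these values. Among intergenic peaks the share at an FDR of at most 5% was 0.732% (0.563 to 0.936) below 20 kb, 0.434% from 20 to 50 kb and 0.190% (0.0870 to 0.361) from 50 to 100 kb. In deserts it was 0.196% (0.0534 to 0.501) from 100 to 150 kb, 0.201% from 150 to 200 kb, 0.660% (0.215 to 1.53) from 200 to 300 kb and 0.407% (0.0103 to 2.24) from 300 to 500 kb. The 5 calls behind the third of these desert values and the single call behind the last leave wide intervals that overlap their neighbours. Median fold enrichment stayed between 6 and 6.18 in all of these distance classes. The 3 peaks just inside the limit, at 100.022 to 100.029 kb, had fold enrichments of 5.11, 6.18 and 5.82. The 3 just outside it, at 99.957 to 99.974 kb, had 7.06, 7.06 and 6.18.

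**Figure D1:**
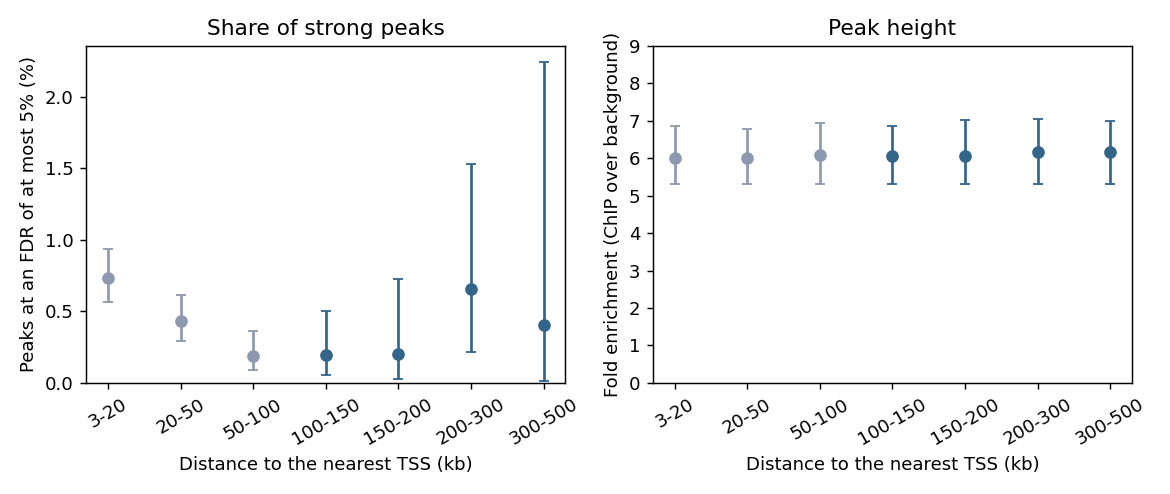
Left, the share of intergenic peaks at an FDR of at most 5% (percent, with 95% exact intervals) by distance to the nearest TSS in kb; right, median fold enrichment with the interquartile range. Grey points are nearer than 100 kb and blue points are gene-desert peaks. The share is 0.732% below 20 kb and 0.190% to 0.196% on both sides of the limit, while the median fold enrichment stays near 6.

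Many of the authors' fold enrichments fell on a ladder of equal steps. The 5 values given most often were 6.18 (608 gene-desert peaks), 5.30 (447), 7.06 (435), 7.95 (182) and 4.42 (77). The step of 0.883 was computed from these 5 values, which are near whole multiples of it. Within 0.01 of such a multiple lay 46.6% (45.03 to 48.11) of gene-desert peaks and 37.4% of all peaks. The share was 41.5% (40.8 to 42.2) in nearer intergenic peaks, 37.7% in intron peaks and 28.8% (28.03 to 29.55) in promoter peaks. Because the step was taken from the gene-desert peaks themselves, their higher share is not an independent result. The 5 gene-desert peaks of 11.48 sat on step 13 of this ladder. Small differences in fold enrichment between such peaks are single steps of it.

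The 3 gene-desert peaks with an FDR of at most 1%, a limit that 0.659% of all peaks passed, lay on chromosomes 2, 3 and 12. The peak with the lowest FDR, 0.280%, was on chromosome 3 (43935429 to 43936617), 102 kb upstream of RP4-555D20.3, a transcript known by its clone name. It held 51 tags (Poisson interval 37.97 to 67.06) at a fold enrichment of 7.28. The peak on chromosome 2 (72022948 to 72023955) lay 185 kb downstream of an annotated TSS of DYSF, which encodes dysferlin, a membrane repair protein of muscle. It had 36 tags (25.2 to 49.8), a fold enrichment of 10.51, an FDR of 0.310% and a −log10 p of 13.3, the highest of the gene-desert peaks. The peak on chromosome 12 (105955414 to 105957134) lay 141 kb upstream of the long non-coding RNA gene CASC18, with 58 tags (44.04 to 74.98), a fold enrichment of 7.08 and an FDR of 0.480%. These 3 peaks were 1008 to 1721 bp wide, broader than the median of 491 bp.

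The other 9 peaks at an FDR of at most 5%, named because of their small number and not by the rule for named peaks, had FDRs from 2.67% to 4.44%. Of the 12, SORL1 and DYSF were the only protein-coding neighbours. SORL1 encodes a sorting receptor of the endosome. Its peak lay 159 kb downstream of an annotated TSS of the gene on chromosome 11 (121658498 to 121659152), with 25 tags at 8.74-fold. On chromosome 4, a peak near RP11-12K22.1 and another at 30223034 to 30223997 each reached 9.71-fold, with 26 and 28 tags. On chromosome 3, the peaks near RP11-93B21.1 and AC018359.3 had 9.52-fold with 20 tags and 7.95-fold with 26 tags. The peak near AC019055.1 on chromosome 2 had 8.08-fold with 32 tags, and that near CTD-2013M15.1 on chromosome 5 had 7.95-fold with 27 tags. The peak near the pseudogene ATP6V1G1P7 on chromosome 13 (104563260 to 104563477) was 218 bp wide, the narrowest of the gene-desert peaks, and held 12 tags at 10.60-fold. The peak near KSR1P1, on chromosome 10, belongs to the tag-rich peaks.

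The surroundings of the 12 peaks differed. Each had 4 to 10 other peaks within 100 kb, 73 in all, of which 0 reached an FDR of 5%, too few for a share of 1.24% to show a difference. Near DYSF the 6 neighbours, all gene-desert peaks, had 9 to 16 tags and fold enrichments of 5.46 to 7.06, below the 36 tags and 10.51 of the strong peak. Near CASC18 the 7 neighbours had 10 to 22 tags, below the 58 of the strong peak, although 1 of them reached 8-fold. Around RP4-555D20.3 the 10 neighbours had 10 to 33 tags, below its 51, and reached 7.68-fold, above its 7.28. The 12 tags of the ATP6V1G1P7 peak were within the 9 to 15 of its 5 neighbours, and the KSR1P1 peak of 304 tags adjoined a peak of 341. The next peak at an FDR of at most 5% was 0.249 to 5.72 Mb away. Over all gene-desert peaks that distance had a median of 2.66 Mb, against 1.73 Mb for nearer intergenic peaks and 1.48 Mb over the whole list.

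Fold enrichment alone ranked a different set first. A value of 11.48 was shared by 5 peaks with 14 to 23 tags. One lay 102 kb downstream of the TSS of GAS1, which encodes a Hedgehog co-receptor, on chromosome 9 (89460124 to 89460457), with 14 tags and an FDR of 13.7%. Another lay 101 kb downstream of the TSS of the sweet taste receptor gene TAS1R2 on chromosome 1 (19084930 to 19085714), with 21 tags and an FDR of 16.9%. The others were near the pseudogene EXOC5P1 on chromosome 4 (23 tags, FDR 8.31%), AL442639.1 on chromosome 9 (18 tags, 19.98%) and LINC00355 on chromosome 13 (16 tags, 22.1%, 375 kb from the TSS). Below them came peaks near RNU6-1325P (11.32), AC003092.2 (11.26), MED6P1 (10.63), ATP6V1G1P7 and RN7SL292P (10.60 each). The value 10.60 was shared by 6 peaks, so the last 2 of the 10 were taken from a tie. Of the 10, the ATP6V1G1P7 peak alone had an FDR of at most 5%, and the 4 tied peaks left out were above it.

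The tag-rich gene-desert peaks were concentrated beside stretches of chromosome that held no peak. At least 50 tags were held by 14 gene-desert peaks (0.342%, interval 0.187 to 0.574), where 0.799% of all peaks had that many. The share was 0.278% in nearer intergenic sequence, 0.181% in introns and 2.78% in promoters. Of the 14, 11 lay within 1 Mb of a peak-free stretch of 3 Mb or more, as did 165 (4.03%) of all gene-desert peaks. All 9 with 100 tags or more did so, and they lay at 2 places.

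On chromosome 16, 7 neighbouring peaks between 46387999 and 46408189 were given to ANKRD26P1, a pseudogene, at 105 to 124 kb. They held 420, 152, 139, 251, 314, 155 and 104 tags in order along the chromosome. Their fold enrichments were between 2.84 and 4.75 and their FDRs between 25.8% and 47.0%, so they had many tags and little enrichment. The first of them begins where a peak-free stretch of 11.3 Mb ends.

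On chromosome 10, 2 adjoining peaks given to the pseudogene KSR1P1 (42390042 to 42392419 and 42392577 to 42395085) held 341 and 304 tags at fold enrichments of 7.00 and 7.90. Their FDRs were 35.1% and 2.67%. They border a peak-free stretch of 3.26 Mb. Both stretches include the centromere of their chromosome.

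The same combination recurred in 2 peaks near IGHV1OR21-1 on chromosome 21, with 81 and 54 tags at 4.21-fold and 4.06-fold. The 3 tag-rich peaks away from such stretches were those near RP4-555D20.3 and CASC18, described above, and a peak of 2150 bp near UNC5CL on chromosome 6 (40874122 to 40876271) with 80 tags at 3.16-fold. Across the list, the 48 other peaks with 100 tags or more had a median fold enrichment of 11.30 and a median FDR of 0, against 3.88 and 38.7% for the 9 in deserts. Whether copy number or repeated sequence enters the tag counts was not tested. Without peaks within 1 Mb of peak-free stretches, a setting chosen after the values were seen, the median fold enrichment of gene-desert peaks was again 6.13.

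Median fold enrichment varied little among peaks with under 20 tags and was lower among those with more. The 1339 gene-desert peaks with 9 or 10 tags had a median fold enrichment of 6.12 and the 1791 with 11 to 14 tags one of 6.18. The median was 6.01 for 632 peaks with 15 to 19 tags, 5.46 for 278 with 20 to 29 tags, 5.24 for 37 with 30 to 49 tags, 4.21 for 5 with 50 to 99 tags and 3.88 for the 9 with 100 or more. An FDR of at most 5% was given to 1 peak with under 20 tags, to 6 of 278 with 20 to 29 tags (2.16%), 2 of 37 with 30 to 49 (5.41%), 2 of 5 with 50 to 99 and 1 of 9 with 100 or more. Fold enrichment depends on the caller's background at each place, which the list does not give. The list holds only peaks with a deposited score of at least 30, taken as 10 times −log10 p. Whether this cut shapes the relation of tags and fold enrichment was not tested.

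**Figure D2:**
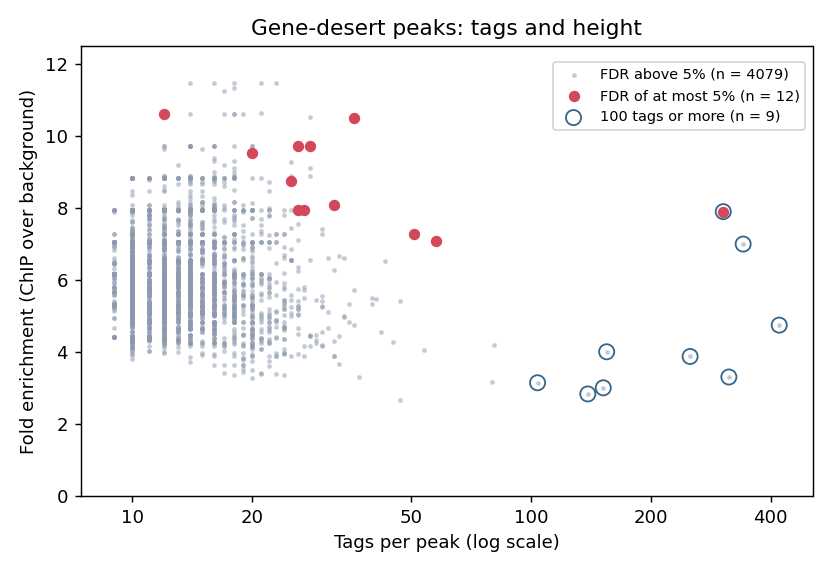
Fold enrichment of each of the 4091 gene-desert peaks against its tags (log scale). Red points are the 12 peaks at an FDR of at most 5%, and blue rings mark the 9 peaks with 100 tags or more, which lie between 2.84 and 7.90-fold; horizontal rows of points are the repeated fold values.

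The nearest gene of a desert peak was seldom classed as protein-coding. The 4091 peaks were given to 1432 Ensembl genes, 228 of them protein-coding by a match of symbols to RefSeq. Protein-coding genes took 563 peaks, 13.8% (12.7 to 14.9), against 25.8% (25.2 to 26.4) of nearer intergenic peaks and 45.1% of all peaks. Transcripts with only a clone name took 48.2% (46.6 to 49.7) and were not classed as coding or non-coding. Pseudogenes took 19.1% (17.9 to 20.3), small RNA genes or their copies 15.5% (14.4 to 16.6) and named long non-coding RNAs 2.98%. The median length of the nearest transcript was 1076 bp, against 1500 bp for nearer intergenic and 5225 bp for all peaks. Peaks given to the 5 named classes had similar heights, with median fold enrichments of 5.95 for protein-coding neighbours and 6.06 to 6.18 for the others.

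Gene-desert peaks lay on both sides of their nearest TSS. Upstream were 1950 peaks, 47.7% (46.1 to 49.2), and the rest lay beyond the gene's far end. Nearer intergenic peaks were upstream in 57.4% (56.7 to 58.0). That share was 63.1% below 20 kb, 51.4% (50.01 to 52.88) from 50 to 100 kb and 49.4% (47.2 to 51.6) from 100 to 150 kb. Of the 48 peaks at 500 kb or more, 40 were upstream. These are not independent, since several can belong to the same transcript and share its side. All 21 gene-desert peaks of FTLP17 and all 16 of RP11-414B7.1, reaching 639 and 629 kb, lay upstream. The median distance was 150.1 kb (interquartile range 119.5 to 201.6). The farthest peak lay 760 kb upstream of RP11-715L17.1 on chromosome 7, with 9 tags at 6.18-fold, at the edge of another peak-free stretch. Distances of 643 to 748 kb were given to the 4 next peaks, near the same transcript, RPL7P45, RP11-622L21.1 and ATP6V1G1P7.

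**Figure D3:**
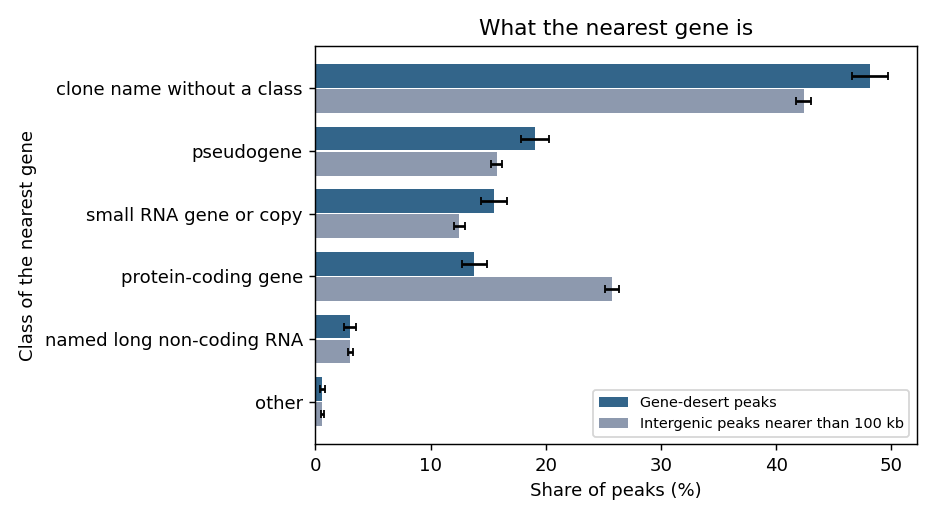
Class of the nearest gene for gene-desert peaks (blue) and intergenic peaks nearer than 100 kb (grey), as a share of peaks in percent with 95% exact intervals. Protein-coding genes are nearest to 13.8% of gene-desert peaks and 25.8% of the nearer ones.

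Some protein-coding neighbours had many gene-desert peaks. ALCAM, which encodes an immunoglobulin-family adhesion molecule, had the most of the 228 genes, 11 peaks at 101 to 430 kb upstream on chromosome 3, with 10 to 26 tags and fold enrichments of 3.99 to 7.88. TECRL had 10 peaks downstream with 9 to 17 tags, and CDH2, CARTPT and TRPS1 had 8 each. None of the gene-desert peaks of these 5 genes had an FDR below 14.01%. For 11260 protein-coding symbols in the list, 563 of 30281 peaks (1.86%) were gene-desert peaks, which serves below as the background for 6 gene lists. These lists were written with earlier results of the data known, and no list was tested. Their intervals treat peaks as independent although several peaks often belong to the same gene, so they are too narrow.

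Cell adhesion genes of neurons had gene-desert peaks at 11 of 81 listed genes found in the file, 28 of 767 peaks (3.65%, interval 2.44 to 5.23). CDH2, which encodes the N-cadherin typical of mesenchymal cells, had all 8 of its gene-desert peaks upstream, between 103 and 208 kb, on chromosome 18 (25860478 to 25965580). Their tags were 9, 13, 13, 10, 19, 12, 12 and 10 and their fold enrichments between 3.83 and 7.28. The peak with most tags had the lowest fold enrichment of the 8. NRG3, a neuregulin gene, had 6 with fold enrichments up to 6.36. The protocadherin gene PCDH7 had 4 up to 7.06, and PCDH10 had 3 up to 6.86. Single peaks of 8.83 lay near PCDH17 and near CDH11, which encodes a cadherin of bone and mesenchyme.

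Ion channel and receptor genes had such peaks at 11 of 63 genes, 35 of 400 peaks (8.75%, 6.17 to 11.96). The serotonin receptor genes HTR1B, HTR1A and HTR2A had 7, 6 and 3. Those of HTR1A lay 148 to 296 kb downstream on chromosome 5 with 12 to 16 tags, and reached 8.83-fold in 2 of the 6 peaks. Those of HTR1B had 11 to 14 tags and a median fold enrichment of 5.24. KCNH7, a potassium channel gene, had 5 with at most 10 tags each, and the glutamate receptor genes GRIK2 and GRM3 had 3 each, up to 7.95-fold and 6.33-fold.

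Secreted and signalling genes had gene-desert peaks at 5 of 49 genes, 14 of 176 peaks (7.95%, 4.42 to 12.99). INHBA, which encodes an activin subunit, had 5 at 194 to 280 kb downstream with 10 to 16 tags and up to 8.27-fold. FGF18, a fibroblast growth factor gene, had 3, all of the peaks given to it. GDF10 also had only gene-desert peaks, 2 of 2, and RSPO3, a gene of a WNT agonist, had 2 of 6. GAS1 had the peak of 11.48 and a second of 7.06 with 10 tags.

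Developmental transcription factor genes, the classical PRC2 targets, had them at 6 of 90 genes, 14 of 348 peaks (4.02%, 2.22 to 6.66). GLI3, a transcription factor of Hedgehog signalling, had 4 with fold enrichments of 4.16 to 6.18. ESRRG and ATOH1 had 3 each, up to 7.06 and 5.82, POU3F4 had 2 up to 7.06, and SOX5 had 1 at 6.18. Breast lineage, epithelial and mesenchymal genes had gene-desert peaks at 3 of 41 genes, 12 of 123 peaks (9.76%, 5.14 to 16.42). Of these 12, 8 were the CDH2 peaks also counted above. TP63, a basal epithelial transcription factor gene, had 3 upstream with 10 to 20 tags, and COL1A2, a collagen gene, had 1 at 5.82. Of the 42 peaks given to genes of PRC2 subunits, 0 were gene-desert peaks, for which the interval reaches 8.41%. None of the gene-desert peaks of these 6 lists reached an FDR of 5%, but at the 0.293% of all gene-desert peaks so few peaks could not show a difference.

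The peaks were unevenly spread over the chromosomes. Chromosomes 4, 13 and 5 had the highest densities, 2.30, 2.29 and 2.09 gene-desert peaks per Mb of the span of their peaks. Chromosomes 22, 15 and 19 had the lowest, 0.144, 0.243 and 0.289 per Mb, leaving out Y, which had 1. The ratio between the extremes was 16.02, which rests on the 5 gene-desert peaks of chromosome 22, and was 9.50 against chromosome 15, which had 20. The density of all peaks varied differently, since chromosome 19 had 27.6 peaks per Mb and chromosome 13 had 16.8. As a share of a chromosome's peaks, gene-desert peaks made up 13.7% (12.02 to 15.44) on chromosome 13 and 10.4% (8.64 to 12.46) on chromosome 18, but 1.05% (0.611 to 1.67) on chromosome 19 and 0.917% (0.299 to 2.13) on chromosome 22. Their median height varied little, from 5.30 on chromosome 16, which holds the ANKRD26P1 group, to 6.18 on several others, over the 21 chromosomes with at least 20 of them. The 12 peaks at an FDR of at most 5% lay on 8 chromosomes, 3 of them on chromosome 3. MDA-MB-231 is aneuploid, and the densities are not corrected for copy number.

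**Figure D4:**
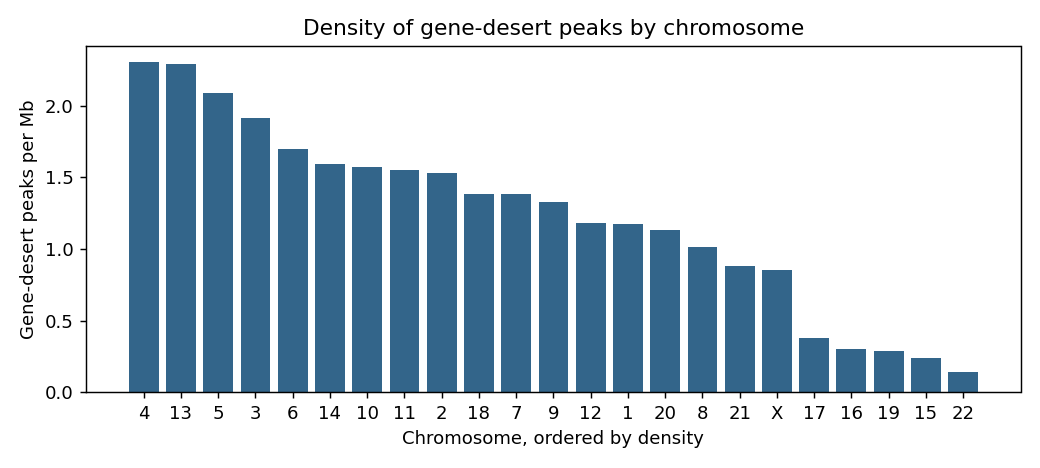
Gene-desert peaks per Mb of the span covered by peaks, for chromosomes 1 to 22 and X in order of density. Chromosomes 4, 13 and 5 lead with 2.30, 2.29 and 2.09 per Mb, and chromosome 22 is lowest with 0.144.

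The spacing of gene-desert peaks was close to that of other peaks. The nearest other gene-desert peak lay at a median of 15.0 kb between centres, and 1595 peaks (39.0%, 37.5 to 40.5) had one within 10 kb. The nearest peak of any kind lay at a median of 13.97 kb, against 12.93 kb over all peaks and 13.27 kb for nearer intergenic peaks. Because the rule takes every intergenic peak far from a TSS, consecutive peaks of a desert are chosen together. Such runs numbered 964, of which 261 were single peaks, and the 103 runs of at least 10 peaks held 1400 peaks over 49.9 Mb.

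The longest run had 37 peaks over 1075 kb on chromosome 1 (104796125 to 105870994), of which 21 were given to FTLP17, a ferritin light chain pseudogene, and 16 to RP11-414B7.1. They had 9 to 22 tags and fold enrichments of 4.20 to 8.08, and the lowest FDR was 35.1%. The next protein-coding genes in the list were the amylase gene AMY1C, 495 kb to the left, and PRMT6, an arginine methyltransferase gene, 1728 kb to the right. The second run had 28 peaks on chromosome 13 (104203603 to 105353513), between SLC10A2 and DAOA, with 9 to 16 tags. It held the 10.60-fold peak near ATP6V1G1P7, while its other peaks were spread from 4.28-fold upwards around a median of 6.18. Next came 2 runs of 25 peaks each. One, on chromosome 18 (35387424 to 36116567), lay between CELF4, a gene of a neuronal RNA-binding protein, and PIK3C3, 3419 kb beyond its right end, and reached 8.83-fold. The other, on chromosome 4 (60799974 to 61403376), was shorter at 603 kb and held the 11.32-fold peak near RNU6-1325P, with an FDR of 8.67%. Genes without a peak are not in the list, so nearer genes may exist.

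**Figure D5:**
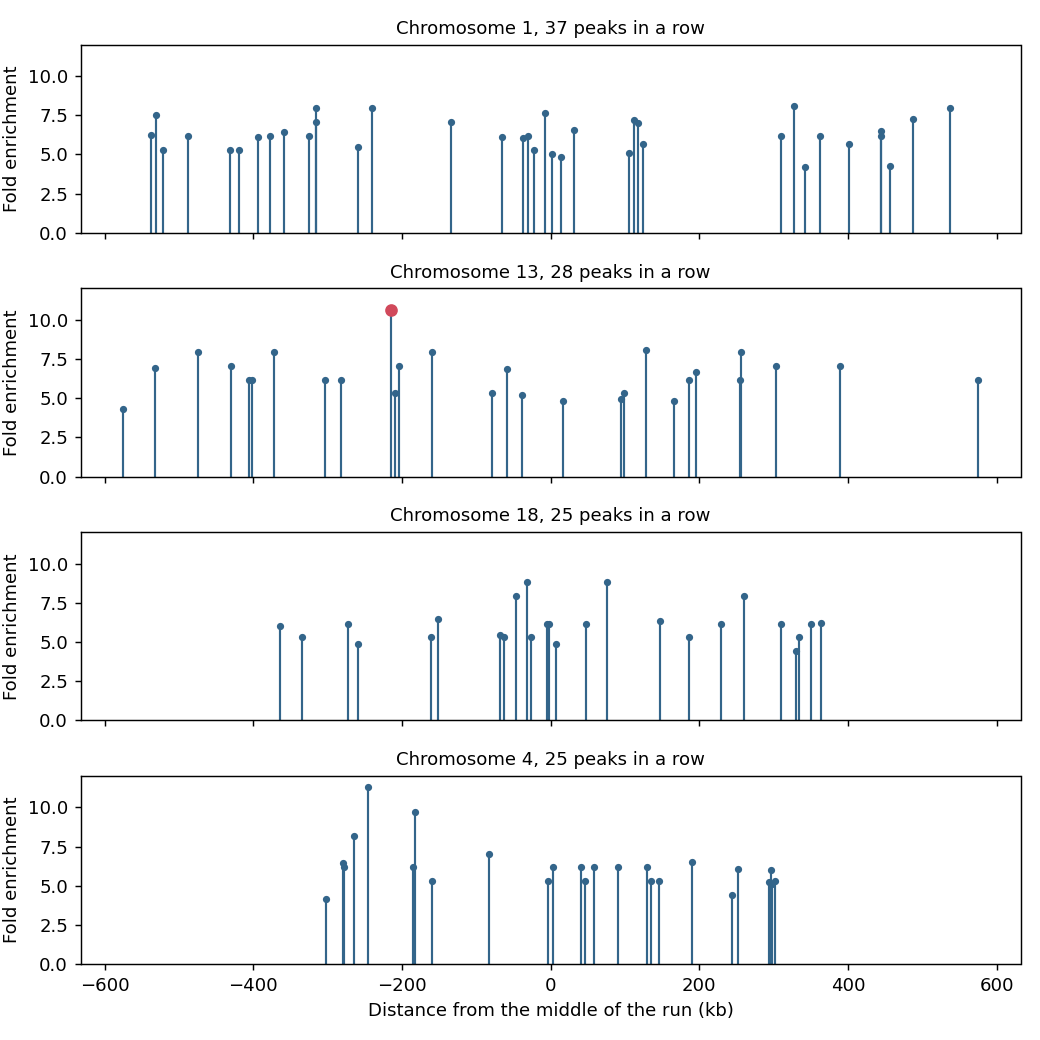
Fold enrichment of each peak against its distance in kb from the middle of the run, for the 4 runs with most gene-desert peaks in a row (37, 28, 25 and 25). Peaks stand between 4.14 and 11.32-fold, and the red point on chromosome 13 is the only one at an FDR of at most 5%.

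The densest groups within 100 kb had 10 and 9 peaks. On chromosome 5 (71162456 to 71253711), 10 peaks with 11 to 21 tags were given to CARTPT, which encodes a neuropeptide precursor, and to MAP1B, a gene of a microtubule-associated protein. Their fold enrichments ran from 4.63 to 8.99. On chromosome 10 (66042011 to 66133987), 10 peaks near the pseudogene DBF4P1 had 9 to 22 tags and reached 7.95. On chromosome 4 (127144827 to 127219515), 9 peaks near RP11-318I4.2 had 9 to 23 tags and reached 8.73. FDRs in these 3 groups were between 27.7% and 47.1%.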

How the data were processed

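JARID2 ChIP-seq peaks of 1 library were analysed, with no value of the input library. The submitters' processing notes name hg19, ChIPseeker, MACS2, MACS, Bowtie 0.12.8 and bcl2fastq. For caller thresholds and the use of the input, the sources used here give nothing. Each peak has a deposited whole-number count of tags, not normalised. Per the file headers, the next deposited column is fold enrichment, a linear ratio over background as computed by the caller. The deposited FDR is in percent. A deposited score without a readable header starts at 30 and was taken, by its position, as 10 times −log10 p.

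Distances, classes and nearest genes are the authors'. A distance is to the TSS of an annotated transcript, which need not be the main start of its gene. The distances of the GLI3 peaks, for example, were measured from different starts. Gene classes came from symbols: 650 of the 1394 symbols of gene-desert peaks matched RefSeq (GRCh38.p14), whose coordinates were not used. Small RNAs and pseudogenes were also recognised by name or description. The deposited symbols of 5 such peaks read as dates and stayed unclassed. Shares have exact Clopper-Pearson intervals and medians order-statistic intervals (Python 3.11.15, scipy 1.17.1), all for counting error. Computations were tested on simulated data.

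Members and gene lists were chosen with earlier results of these data known. Named peaks were the 10 of largest fold enrichment, the 10 with most tags, those at an FDR of at most 1%, the 5 farthest, the 5 widest and 3 on each side of the limit. Named genes were the 10 given most peaks (of which those in the longest runs are described), up to 6 per list, the 3 densest groups and the extreme chromosomes. A gene that the rule picks is not reported here. Long runs, peak-free stretches, fold steps and neighbours were chosen after the values were seen. Alternatives were other distance limits, stricter peak limits and merging. Peak sequences need hg19, which was not used here.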

Additional observations from a re-analysis of the deposited data

How the results depend on the processing

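Of 53 values recomputed under alternatives for 7 results, 24 stayed within the interval of the reported value and 29 did not. With limits of 50, 200 and 500 kb in place of 100 kb, gene-desert peaks were 13.2%, 1.57% and 0.0716% of all peaks, 49.7%, 46.0% and 83.3% of them lay upstream, and 15.8%, 11.8% and 0% were given to protein-coding genes. The share at an FDR of at most 5% was 0.570% at 200 kb and 0% at 500 kb, where 48 peaks remain, and the share within 10 kb of another such peak was 35.9% and 33.3%. With a −log10 p of at least 5, gene-desert peaks were 4.73% of peaks, with a median fold enrichment of 7.28, a median of 18 tags, 2.93% at an FDR of at most 5%, 46.0% upstream, 16.1% at protein-coding genes and 3.42% within 10 kb of another. In the top 25% by fold enrichment these were 6.34% of peaks, 7.15-fold, 1.12% at that FDR and 11.02% within 10 kb. FDR limits of 10% and 1%, which 1.96% and 0.659% of all peaks passed, gave 0.562% and 0.0733% in deserts. Distances of 5 and 50 kb gave 22.2% and 83.5% with a neighbour, and merging peaks within 1000 bp gave 35.0% within 10 kb. Each alternative changed the peaks or the limit used, and some moves follow from that change alone. The same 12 peaks at an FDR of at most 5% were 2.93% of 409 and 1.12% of 1071 gene-desert peaks. A cut on fold enrichment raises its median, and leaving out peaks can only lengthen the distance to the nearest one. Why the remaining values moved was not tested. The 83.3% upstream comes from the 48 peaks at 500 kb or more, which are not independent. Leaving out peaks within 1 Mb of peak-free stretches, chosen after the data were seen, kept all 7 within their intervals. No paired analysis was possible because each group had 1 library. The median of 12 tags limits every single-peak value.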

Other observations

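Small RNA genes and their copies, 211 of the 1432 nearest genes, took 633 gene-desert peaks. U6 spliceosomal RNA copies led with 199 peaks at 54 genes, followed by 5S ribosomal RNA copies with 85 and microRNA genes with 70. Gene-desert peaks were 13.4% of all peaks given to U6 copies, 13.9% of those given to 5S copies and 7.40% of those given to microRNA genes. They were 6.10% of all peaks in the list and 9.79% of those given to small RNA genes or copies. For 7SL and 7SK the shares were 5.61% and 5.73%. The smaller families U3 and SNORA31 had 15.6% of 109 peaks and 32% of 50. The 17 U3 peaks belonged to 7 genes and the 16 SNORA31 peaks to only 2, so the SNORA31 share describes few places. The median fold enrichments of the U6, 5S, microRNA, 7SL and 7SK families were between 5.81 and 6.18.

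Pseudogenes and unclassed transcripts filled the list of genes given most gene-desert peaks. After FTLP17 with 21 came RP11-687D19.1 with 17, and ATP6V1G1P7, RP11-414B7.1 and RP11-476B1.1 with 16 each. CYP51A1P1 and SRRM1P2, neighbouring pseudogenes on chromosome 3, had 15 each, and RPL7P45, AC095061.1 and RP11-281P11.1 had 14 each. Of the 1432 genes, 39 had 10 or more gene-desert peaks, 555 had 1, and 98 had no other kind of peak.

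Some peak-free stretches lay away from centromeres, among them 4.72 and 5.25 Mb on the short arm of chromosome 9 and 3.34 Mb on the long arm of chromosome X. The AL442639.1 peak of 11.48-fold lies within 1 Mb of the second.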
